A study of Mus musculus with 6 samples.

Results

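The AMP-activated protein kinase (AMPK) subunit genes Prkaa1, Prkaa2, Prkab1, Prkab2, Prkag1, Prkag2 and Prkag3, the upstream kinase genes Stk11 and Camkk2, and the leptin receptor gene Lepr were followed in mouse myocardium. All probes that carry 1 of these 10 gene symbols in the annotation deposited with the arrays were taken, whatever their signal, which gave 25 of 56605 non-control probes and 10 of 27307 gene symbols. RNA came from the hearts of male C57BL/6J mice labelled as having a cardiomyocyte deletion of the kinase gene Clk4 (Clk4-cKO), and the mouse age is not in the labels. The control group of 3 hearts had received an adeno-associated virus (AAV) coding for wild-type nexilin, a sarcomeric Z-disc protein (AAV NEXN-WT). The other group of 3 hearts had received AAV NEXN-S437E, in which a glutamate replaces a serine to mimic its phosphorylation. The labels give both groups the floxed Clk4 alleles, tamoxifen, and the α-MHC-MerCreMer transgene, a tamoxifen-inducible Cre recombinase that holds parts of the estrogen receptor and is driven in cardiomyocytes. The signal of an Esr1 probe, if it lies in the part that the transgene holds, goes against this for the arrays labelled NEXN-S437E, as given below. The nexilin in the virus was driven by a broad viral promoter, not one restricted to cardiomyocytes, and was injected into the circulation. The comparison asked how the phospho-mimic changed expression relative to wild-type nexilin in hearts labelled Clk4-cKO.

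AMPK is a kinase of a catalytic α, a scaffolding β and a nucleotide-sensing γ subunit, each encoded by more than a single gene. It is switched on when AMP and ADP rise relative to ATP and when LKB1 (encoded by Stk11) or CaMKK2 phosphorylates the α subunit, and in the heart it raises glucose uptake, glycolysis and fatty acid oxidation and restrains protein synthesis. Leptin, the hormone of fat tissue, acts through the leptin receptor on JAK2 and STAT3 and is among the signals known to activate AMPK in muscle. The activity of AMPK is set mainly by phosphorylation and by bound nucleotides, which an expression array does not measure.

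The sequences of 2 probe pairs are given first, since results below turn on them. The array's annotation assigns the first pair to transcript variant 2 of Lepr, on the plus strand of chromosome 4 in mm9, at chr4:101452666-101452725 and chr4:101464615-101464674. Both lie further downstream than the first Lepr probe, by 62.6 and 74.5 kb, and they are shown because the first was detected on every array and the second on those of a single group.
Lepr A_55_P2177910: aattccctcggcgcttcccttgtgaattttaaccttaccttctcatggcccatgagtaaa
Lepr A_55_P2177911: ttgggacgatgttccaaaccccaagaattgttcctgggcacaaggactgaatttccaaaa
The second pair belongs to Camkk2, on the minus strand of chromosome 5, at chr5:123206615-123207579 for A_55_P2737194 and chr5:123207552-123207611 for A_55_P2730871. The coordinates of the first span 965 bases for a 60-base probe, so it crosses a splice junction, whereas the second is contiguous. They are shown because they share a run of 12 bases, in capitals, after which their sequences part.
Camkk2 A_55_P2737194: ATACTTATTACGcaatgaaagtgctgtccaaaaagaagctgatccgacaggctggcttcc
Camkk2 A_55_P2730871: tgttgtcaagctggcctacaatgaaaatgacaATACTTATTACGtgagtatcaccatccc

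Each heart was hybridised to its own 1-colour Agilent array, and all 6 arrays were on 1 slide read in 1 scan. Values are log2 signals relative to the 75th percentile of the array, which was between 110 and 273 intensity units. A probe is called detected on an array where the scanner software flagged it well above background, as it did for 41.9% to 47.8% of spots. The Esr1 probe A_55_P2030883 had values of 3.13, 5.82 and 5.21 on the arrays labelled NEXN-WT. It read −5.30, −5.63 and −5.41 on those labelled NEXN-S437E, where it was not well above background. Its place within the gene was not checked against an annotation, so that it reads the part carried by MerCreMer is not established. The labels give the transgene to both groups, so a difference in the transgene and the difference in virus cannot be told apart, and every direction below is that between the labels. The only tested Clk4 probe, A_52_P445387, differed by 0.13 (standard error 0.18, adjusted p = 0.706 from limma). The Clk4 probes A_52_P128262 and A_52_P368396 were too dim for a test. Their differences were 0.45 without overlap and 0.60 with overlap. Whether any of these probes lies in the deleted exons was not checked, so they do not show whether the deletion was equal. The Nexn probes A_52_P367520 and A_55_P2745249 differed by 0.02 and 0.14. NEXN-WT replicate 1 stood apart. Its mean absolute difference from the other 2 arrays of its group was 0.38 and 0.44, against 0.25 between those. It was the lowest of the 6 arrays for 11 of 16 tested member probes (68.75%) and for 41.4% of all tested probes, so values that moved most without it are also given in that form. The labels do not say how the hearts were otherwise matched, and p-values measure the spread between these 6 arrays.

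The myocardium expressed its defining genes. Markers of cardiomyocytes were positive in 8 of 8 genes (median log2 fold change 0.42, 3 with an unadjusted p under 0.05). Their summed level, the sum of linear signals over 1 probe per gene in units of the array's 75th percentile, was 1681 to 2180 on the arrays labelled NEXN-WT and 2589 to 2695 on those labelled NEXN-S437E. Fibroblast markers were negative in 8 of 8 genes (median −0.82, 6 with an unadjusted p under 0.05), with a summed level of 623 to 951 against 450 to 484. T cell markers were lower in 5 of 5 tested genes (median −2.07, 3 with an adjusted p under 0.05 from limma), with a summed level of 2.51 to 3.96 against 0.94 to 1.25. The 8 endothelial markers had a median of 0.02, none of them with an unadjusted p under 0.05, and ranges of 149 to 196 against 171 to 195. Of 6 adipocyte markers 2 were tested, and the summed level, 176 to 219 against 258 to 288, came mostly from Fabp4, a fatty acid carrier that heart capillaries also express. Adipoq and Plin1, which define fat cells, were well above background on 1 and on none of the 6 arrays. Lep, the leptin gene and a marker of the same list, went the other way. It was well above background on all 3 arrays labelled NEXN-WT and on 2 labelled NEXN-S437E. In tissue RNA, fewer cells of a type and less RNA per cell cannot be told apart, and the part of these shifts in the values of the members was not tested.

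Of the 25 member probes, 16 passed the filter (well above background on all 3 arrays of a group), and each of the 10 genes had at least 1 of them. On all 6 arrays 14 were detected, and 7 were detected on none. Fits with limma over all 22998 tested probes, at the study's thresholds of a 2-fold change and an unadjusted p of 0.05, called 2 member probes, both of Lepr and both higher. For 1 of them, A_55_P2177911, which passed the filter only through the arrays labelled NEXN-S437E, the supported size is a bound under 2-fold, so A_55_P2506350 is the only call with signal above background in both groups. In the background 2.52% of all tested probes were called in either direction, and 0.735% as higher. No member probe passed an adjusted p of 0.05, which 0.161% of all tested probes did, nor did any with the methods' t-test, whereas Lepr A_55_P2177911 passed it with array weights and without NEXN-WT replicate 1. An unadjusted p under 0.05 was reached by 3 member probes with higher signal, all of Lepr (10.5% of all tested probes), and by 1 with lower signal, of Camkk2 (6.70% of all). That Camkk2 probe, A_55_P2737194, like Lepr A_55_P2177911, passed the filter only through the group where it was high, and its sign turned under another background correction, so these counts are no support for either gene. The groups did not overlap for 5 member probes that were higher (18.7% of all tested probes) and for 1 that was lower (9.17%). The median log2 fold change was 0.23 over the 16 member probes and 0.09 over all tested probes. Without NEXN-WT replicate 1, the lowest array at 11 of the 16, the median of all tested probes was 0.05. The values of Stk11, Prkaa2, Prkab1 and Prkag1 were also lower without that array, so the member median depends on it.

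**Figure D1:**
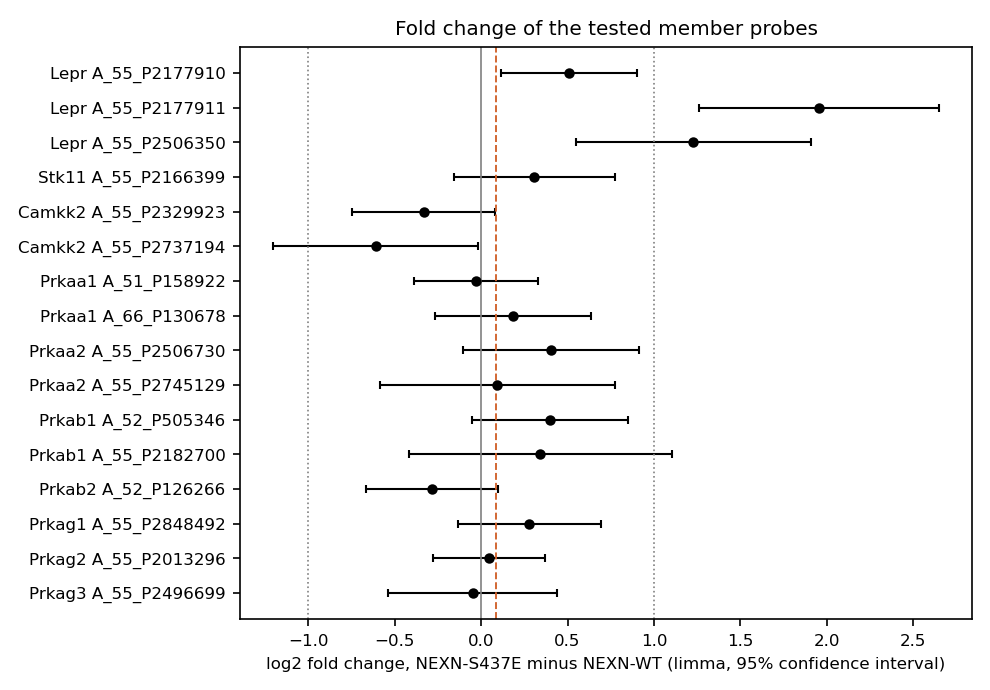
Log2 fold change of the 16 tested member probes, signal on arrays labelled NEXN-S437E minus that on arrays labelled NEXN-WT (3 each), with the 95% confidence interval from limma; dotted lines mark a 2-fold change and the dashed line the median of all tested probes (0.09). The 3 intervals of Lepr lie above 0 (that of A_55_P2177911 rests on a group at background), 1 interval of Camkk2 lies below 0 (A_55_P2737194, at background on 2 arrays labelled NEXN-S437E), and all 10 intervals of AMPK subunit probes include 0.

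Lepr, which encodes the receptor for leptin, had a higher signal on the arrays labelled NEXN-S437E at all 3 of its tested probes. The log2 fold changes were 0.51 and 1.23 at the 2 probes detected on every array, and the third supports only a bound. The probe A_55_P2177910, the first of the sequences above, had values of −0.41, −0.07 and −0.11 on the arrays labelled NEXN-WT and of 0.08, 0.41 and 0.45 on those labelled NEXN-S437E. These groups did not overlap, although NEXN-S437E replicate 1 lay much closer to the controls than the other 2. The difference of 0.51 (standard error 0.17, 95% confidence interval 0.12 to 0.90) had an adjusted p of 0.216 from limma. Its unadjusted p passed 0.05 and was lost without NEXN-S437E replicate 2 (0.46) or replicate 3 (0.44). It was also lost with the slide row as a block and within the row that held both groups, where the log2 fold change was 0.28 (unadjusted p = 0.243 and 0.348 from limma). Without NEXN-WT replicate 1 it was 0.41.

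The second Lepr sequence, A_55_P2177911, lay well above background on all 3 arrays labelled NEXN-S437E and on 0 of the 3 labelled NEXN-WT. It read −4.31, −5.45 and −5.22 on the arrays labelled NEXN-WT and −2.81, −3.35 and −2.97 on those labelled NEXN-S437E. The groups did not overlap, although NEXN-WT replicate 1 lay about as far from the lowest array of the other group as from those of its own. Set against the lowest signal that counted as well above background on each control array, the probe was at least 1.58-fold higher. The fit gave 1.95 (standard error 0.30) with an adjusted p of 0.0701 from limma, but that value measures the dim group within its background, and under normexp it was 0.51 beside 0.37 at A_55_P2177910. Whether the size of the difference was unequal at these probes is not shown. The adjusted p ranged from 0.00468 to 0.369 over the alternatives.

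A_55_P2506350, which the annotation assigns to transcript variant 3 of Lepr, lies at chr4:101486122-101486181, 96.0 kb from the first Lepr probe. It was detected on every array, with values of −2.43, −1.92 and −1.48 on those labelled NEXN-WT and of −0.25, −1.11 and −0.79 on those labelled NEXN-S437E. The groups were separate, and the values within each spread over more than they did at A_55_P2177910. The fit in limma put the log2 fold change at 1.23 with a standard error of 0.29 (95% confidence interval 0.55 to 1.91, adjusted p = 0.134). It fell below 2-fold without NEXN-WT replicate 1 (0.98) and without NEXN-S437E replicate 1 (0.99).

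The other 3 Lepr probes, among them A_66_P130517, the only probe assigned to transcript variant 1, were not well above background on any of the 6 arrays. A_55_P2621144 and A_55_P2621147 are assigned to Ensembl transcripts, and the first of them spans 10566 bases of the genome for its 60 bases. None of the 3 is read as evidence of a low or high transcript, since only a bound exists. The endospanin gene Leprot, which overlaps the 5′ end of Lepr, differed by −0.08 (standard error 0.16) at A_55_P1980583 and by 0.07 (standard error 0.17) at A_66_P113335. Beside the Lepr values stood cardiomyocyte markers with a median of 0.42, fibroblast markers with −0.82 and endothelial markers with 0.02, and their part in the Lepr difference was not tested.

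**Figure D2:**
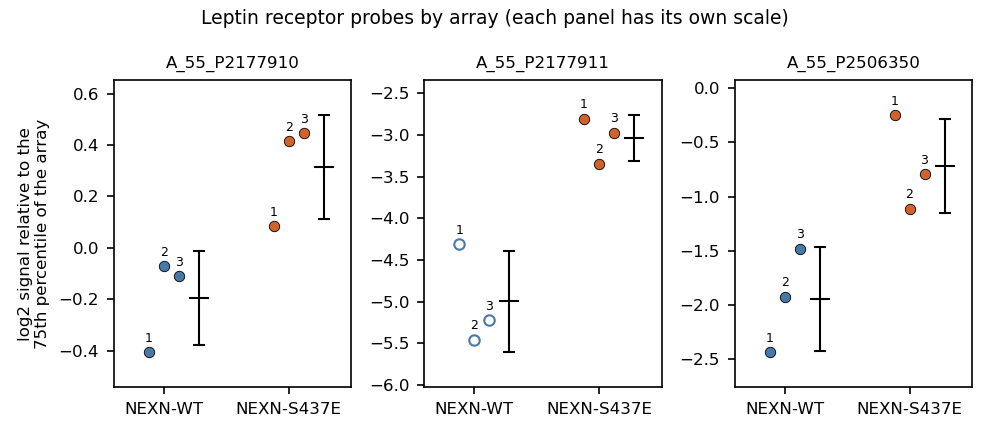
Log2 signal relative to the 75th percentile of the array for the 3 tested Lepr probes, 1 point per array numbered by replicate, with mean and SD (n = 3) beside each group; open points were not well above background. In each panel all 3 arrays labelled NEXN-S437E lie above all 3 labelled NEXN-WT, and the panels have separate scales because levels of different probes are not comparable.

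Of the upstream kinases, Stk11 did not differ beyond the spread of its replicates, and the 2 tested probes of Camkk2 had negative fold changes. Stk11 (LKB1, the main AMPK kinase in heart) was read by A_55_P2166399 at chr10:79590785-79590844, with 1.76, 2.36 and 2.40 on the arrays labelled NEXN-WT and 2.61, 2.47 and 2.37 on those labelled NEXN-S437E. Only NEXN-WT replicate 1 lay clearly below the others, and without it the limma estimate of 0.31 in log2 units (standard error 0.20, adjusted p = 0.439) was 0.10. Camkk2, the calcium-dependent kinase of AMPK, was read best by A_55_P2329923, its only probe detected on all 6 arrays, annotated to transcript variant 1. That probe read 3.44, 3.18 and 3.13 against 3.22, 2.77 and 2.77. NEXN-S437E replicate 1 fell within the range of the controls, and the difference of −0.33 (standard error 0.18) had an adjusted p of 0.367 from limma. It was −0.24 without NEXN-WT replicate 1 and −0.03 when only the slide row that held both groups was used, which has 1 array labelled NEXN-S437E.

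The Camkk2 probe across the splice junction, A_55_P2737194, was detected on all 3 arrays labelled NEXN-WT but on only 1 labelled NEXN-S437E. Its values were −2.74, −2.99 and −2.91 against −4.03, −3.47 and −2.98. The lowest 2 readings were thus the dim ones of NEXN-S437E replicates 1 and 2, and replicate 3 overlapped the controls. The fit in limma put the log2 fold change at −0.61 with a standard error of 0.26 (adjusted p = 0.278), at −0.54 without NEXN-WT replicate 1 and at −0.34 without NEXN-S437E replicate 1. The probe passed the filter only through the arrays labelled NEXN-WT. Under another background correction (normexp) it turned to 0.19, so a direction does not hold for this probe. Its partner A_55_P2730871, which runs on past the shared 12 bases without the splice, was detected on 2 arrays labelled NEXN-WT and none labelled NEXN-S437E. A_55_P2125684 was detected on 2 and 1, and A_55_P2731126 on none, so these 3 probes had no test.

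The AMPK subunit genes gave no call. Over their 13 probes, of which 10 were tested, the fold changes were positive for 7 and negative for 3, the largest in size was 0.40, and the smallest adjusted p was 0.335 from limma. Taking the percentile over detected probes instead of all probes moved the median of all tested probes by −0.11 (from 0.09 to −0.02), so differences of that size have no settled sign.

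Of the catalytic subunits, Prkaa2 (α2, the main form in heart muscle) had a positive fold change without overlap at 1 of its 2 probes, and the values of Prkaa1 (α1) overlapped. Prkaa2 A_55_P2506730, at chr4:104702552-104702611 on the minus strand, read 1.58, 2.31 and 2.33 on the arrays labelled NEXN-WT and 2.37, 2.54 and 2.53 on those labelled NEXN-S437E. The groups did not overlap, yet NEXN-WT replicates 2 and 3 lay close to the other group. The limma estimate of 0.40 in log2 units (standard error 0.22, adjusted p = 0.369) was 0.16 without NEXN-WT replicate 1. The other Prkaa2 probe, A_55_P2745129, crosses a splice junction (428 bases of genome) and read −2.14, −1.05 and −1.16 against −1.07, −1.51 and −1.48. These groups overlapped, and its difference of 0.09 turned to −0.25 without that array and to −0.02 under the percentile over detected probes. Prkaa1 A_51_P158922, at chr15:5131426-5131485, read 0.86, 0.52 and 0.49 against 0.52, 0.63 and 0.62. Its log2 fold change was −0.03 (95% confidence interval −0.39 to 0.33) and turned to 0.09 without NEXN-WT replicate 1. A_66_P130678, which the annotation assigns to a predicted transcript of Prkaa1, differed by 0.18 (standard error 0.20) with overlap, and by 0.063 without NEXN-WT replicate 1.

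The β subunits, which hold the complex together and bind glycogen, had fold changes of opposite sign. Prkab1 (β1) A_52_P505346 at chr5:116464097-116464156 had −0.55, −0.20 and 0.10 on the arrays labelled NEXN-WT and 0.27, 0.26 and 0.0032 on those labelled NEXN-S437E. The spread of the controls reached into the other group. The fit in limma put the log2 fold change at 0.40 with a standard error of 0.20 (adjusted p = 0.335) and 0.23 without NEXN-WT replicate 1. At the second probe, A_55_P2182700, the values were −2.63, −1.62 and −1.29 against −1.31, −1.78 and −1.43. Here the low reading of NEXN-WT replicate 1 set the difference, 0.34 with it and −0.05 without it. Prkab2 (β2, prominent in striated muscle) A_52_P126266 at chr3:97476843-97476902 had 1.39, 1.00 and 0.92 against 0.78, 0.87 and 0.81. All 3 arrays labelled NEXN-S437E lay below the controls, by a small step for 2 of these. The fit in limma put the log2 fold change at −0.28 with a standard error of 0.17 (adjusted p = 0.396), and −0.14 without NEXN-WT replicate 1.

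Among the γ subunits, which bind AMP, ADP and ATP, Prkag1 (γ1) had a positive fold change without overlap, and the values of Prkag2 and Prkag3 overlapped between the groups. Prkag1 A_55_P2848492 at chr15:98643237-98643296 read 4.35, 4.84 and 4.91 against 4.98, 4.96 and 4.99. The step between the nearest arrays of the groups was small beside the gap of NEXN-WT replicate 1 to its own group, and the limma estimate of 0.28 in log2 units (standard error 0.18, adjusted p = 0.433) was 0.10 without it. Prkag2 (γ2, whose human mutations cause a hypertrophic cardiomyopathy with glycogen storage) was read by A_55_P2013296 at chr5:24368591-24368650. Its values were 3.71, 3.74 and 3.89 against 3.94, 3.77 and 3.77. The groups overlapped, with a log2 fold change of 0.05 (95% confidence interval −0.28 to 0.37) that was 0.011 without NEXN-WT replicate 1 and turned to −0.07 on the deposited normalized values. A_55_P2715316, assigned to an Ensembl transcript of Prkag2, was detected on no array. Prkag3 (γ3, a form of fast skeletal muscle) was detected through A_55_P2496699 alone, with −1.64, −0.99 and −1.10 against −1.50, −1.06 and −1.31. Its difference of −0.05 (95% confidence interval −0.54 to 0.44) was −0.25 without NEXN-WT replicate 1 and changed sign under 4 alternatives, and the other 2 Prkag3 probes were not well above background on any array.

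**Figure D3:**
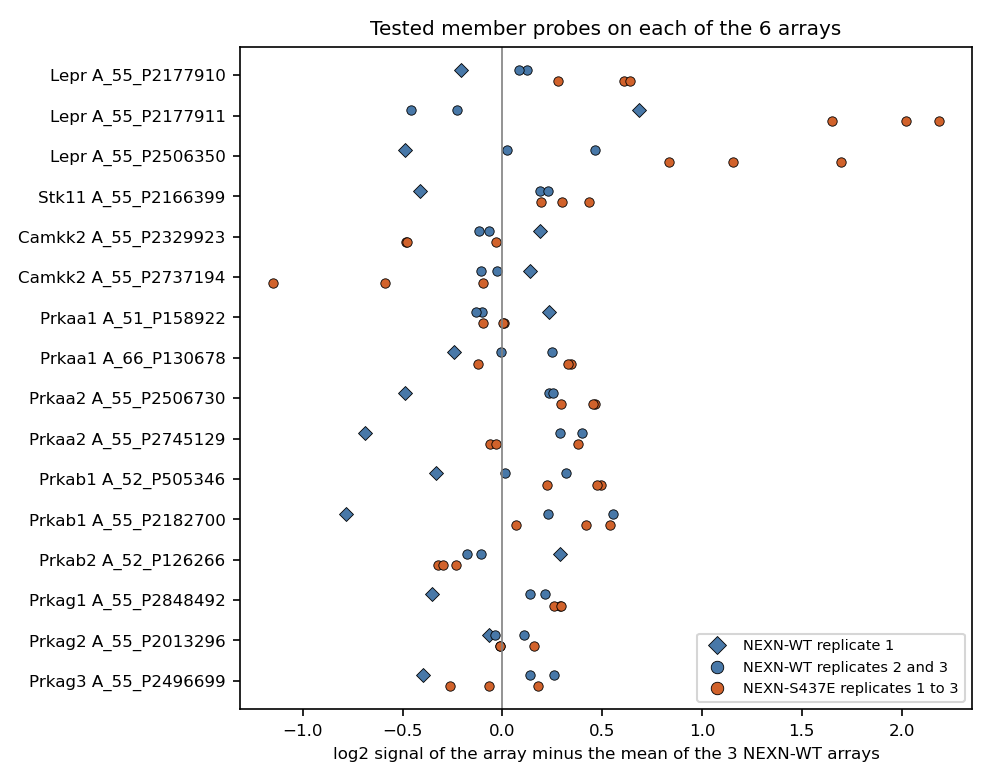
Log2 signal on each array minus the mean of the 3 arrays labelled NEXN-WT, for the 16 tested member probes (blue, NEXN-WT, with replicate 1 as a diamond; orange, NEXN-S437E). The groups do not overlap at the 3 Lepr probes, narrowly so at A_55_P2177910. The diamond lies lowest of the 6 arrays at A_55_P2177910 and A_55_P2506350 as it does for Stk11, Prkaa2, Prkab1 and Prkag1, and for these 4 genes the other 2 controls lie near or among the orange points.

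Differences between paired members within the same array do not depend on the scaling between arrays. They show unequal change and not which gene is more abundant, since the probes differ. The smallest two-sided p that an exact permutation of 3 and 3 arrays allows is 0.1, so these 5 pairs are described. Prkaa2 minus Prkaa1 was 0.73, 1.79 and 1.84 on the arrays labelled NEXN-WT and 1.84, 1.91 and 1.90 on those labelled NEXN-S437E (difference 0.43, exact p = 0.1, adjusted over the 5 pairs 0.167). These values are from the probe of highest mean of each gene, and the mean over all probes of a gene detected on every array gave a difference of 0.17. NEXN-WT replicate 1 carried the former, and the difference was 0.07 without it. Prkab2 minus Prkab1 was 1.94, 1.20 and 0.82 against 0.51, 0.62 and 0.80, a difference of −0.68 (exact p = 0.1, adjusted 0.167). The groups did not overlap but met closely, and the difference was −0.37 without NEXN-WT replicate 1. Camkk2 minus Stk11 was 1.68, 0.82 and 0.73 against 0.61, 0.30 and 0.40. This pair also had no overlap, with a difference of −0.64 (exact p = 0.1, adjusted 0.167) that was −0.34 without NEXN-WT replicate 1. Prkag2 minus Prkag1 differed by −0.23 and Lepr minus Leprot by 0.59, both with overlap (exact p = 0.2). Without NEXN-WT replicate 1 these were −0.094 and 0.47.

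**Figure D4:**
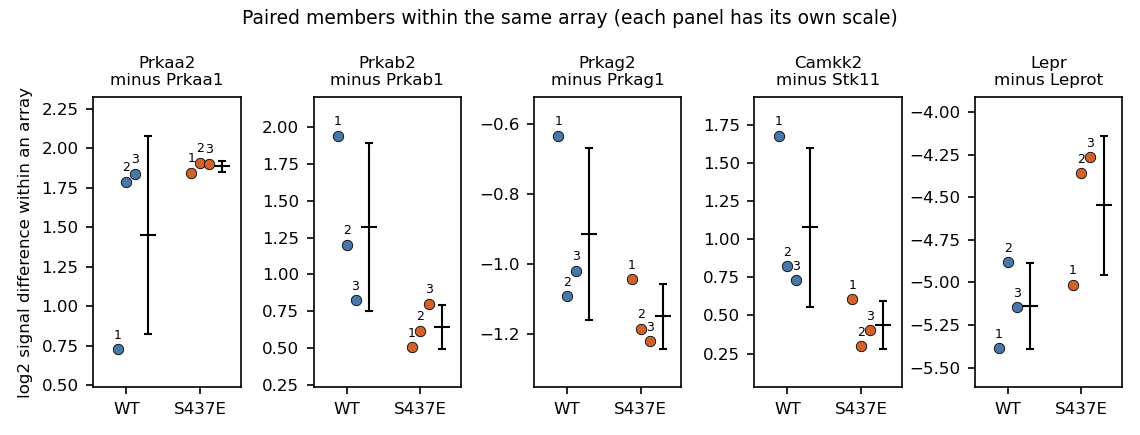
Difference in log2 signal between paired members within the same array, 1 point per array numbered by replicate, with mean and SD (n = 3). In the pairs Prkaa2 minus Prkaa1, Prkab2 minus Prkab1 and Camkk2 minus Stk11 the groups do not overlap, and NEXN-WT replicate 1 lies farthest from the arrays labelled NEXN-S437E.

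The rest of the pathway was read from lists of 1 probe per gene, against all 13747 tested genes, of which 10.1% were higher and 7.91% lower at an unadjusted p of 0.05, and 0.771% and 2.15% also by 2-fold (median of all genes 0.07). None of the listed pathway genes passed an adjusted p of 0.05 in limma. The LKB1 partners, the STRAD and MO25 proteins that activate LKB1, were all tested and none of the 4 passed an unadjusted p of 0.05 (median −0.02), with Stradb at 0.38 (0.17 without NEXN-WT replicate 1) and Strada at −0.18. Other upstream kinases, phosphatases and regulators had 0 higher and 2 lower of 21 tested genes (median 0.06). These were Ppm1e, a phosphatase that acts on AMPK (−0.71, standard error 0.19, adjusted p = 0.163), and Camkk1, the paralogue of Camkk2 (−0.93, standard error 0.29, adjusted p = 0.196, and −0.61 without NEXN-WT replicate 1). Of 12 tested AMPK-related kinases, which LKB1 also phosphorylates or which resemble AMPK, 1 was past that threshold, Brsk1, a kinase of neuronal polarity (−1.27, standard error 0.24, adjusted p = 0.10). It was detected on only 1 array labelled NEXN-S437E and passed the filter only through the other group, so its fold change rests on a group mostly at background.

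Of 23 tested AMPK substrates 3 were higher and none lower (median 0.05). Tbc1d4, which holds back GLUT4 traffic until it is phosphorylated, differed by 0.57 (standard error 0.19, adjusted p = 0.217), and Tsc2, a brake on mTORC1, by 0.44 (standard error 0.17, adjusted p = 0.249). Leaving out NEXN-WT replicate 1 left 1 substrate at that threshold, and leaving out NEXN-S437E replicate 2 or 3 left 0 or 1. In leptin and adiponectin signaling, 0 were higher and 1 lower of 21 tested genes (median −0.01), which was Socs1, an inhibitor of JAK kinases (−0.95, standard error 0.23, adjusted p = 0.134). Lep, the leptin gene itself, differed by 0.36 (standard error 0.18, adjusted p = 0.345) and was detected on all 3 arrays labelled NEXN-WT and on 2 labelled NEXN-S437E. Adenylate and phosphocreatine enzymes had 2 higher and 2 lower of 14 tested genes (median 0.21), led by Ckb, brain-type creatine kinase (−0.48, standard error 0.17, adjusted p = 0.228), and Adssl1, the muscle adenylosuccinate synthase (0.41, standard error 0.16, adjusted p = 0.253). The 4 genes at that threshold became 1 or 2 when NEXN-WT replicate 1 or 2 was left out, and 1 or 0 when NEXN-S437E replicate 2 or 3 was. Cardiomyocyte markers had a median of 0.42, of the same sign as that of this list, and their part in it was not tested.

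The AMPK signaling pathway as the deposited KEGG annotation gives it held 125 genes, which include the members, and 106 of them were tested. At an unadjusted p of 0.05, 10 were higher and 6 lower (median 0.10), 9.43% and 5.66% of those tested, near the shares of all genes. By the study's thresholds 2 were higher and none lower. Pfkfb1, an enzyme that sets the glycolytic regulator fructose 2,6-bisphosphate, was higher by 2.13 (standard error 0.31, adjusted p = 0.0607 from limma), and Fbp2, the muscle fructose-bisphosphatase, by 1.20 (standard error 0.25, adjusted p = 0.111 from limma). Both were detected on every array. Their groups did not overlap, which held in that direction for 18.7% of all tested probes.

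**Figure D5:**
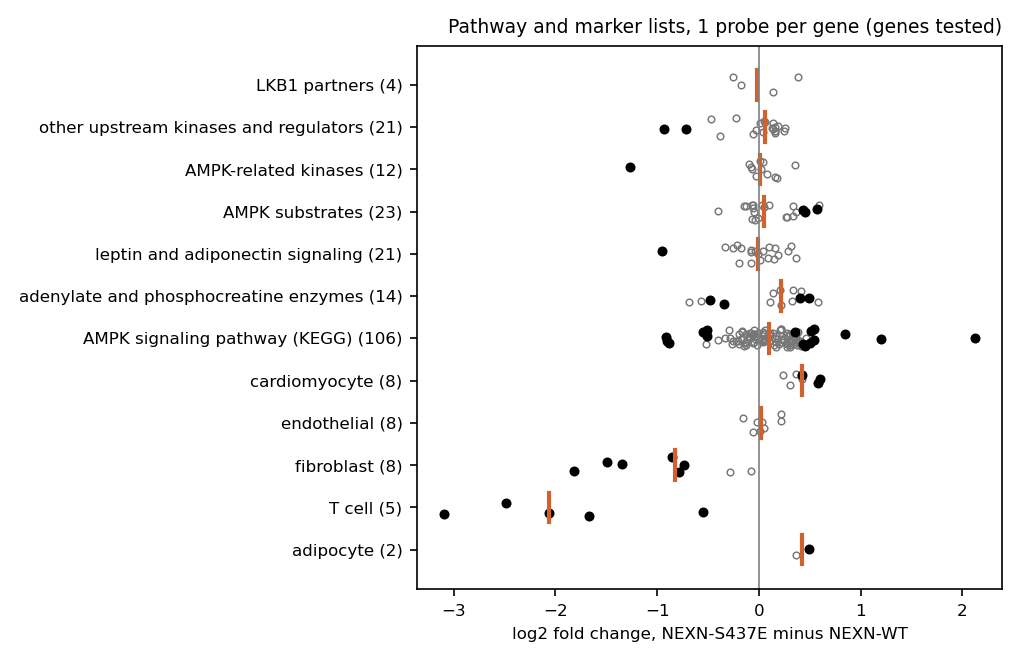
Log2 fold change (arrays labelled NEXN-S437E minus those labelled NEXN-WT) of every tested gene in the pathway lists and in 5 marker lists, 1 probe per gene; filled points have an unadjusted p under 0.05 and orange bars are medians. The medians of the pathway lists lie between −0.02 and 0.21, those of cardiomyocyte and fibroblast markers at 0.42 and −0.82.

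The genes whose values ran most like those of Lepr A_55_P2177910 over the 6 arrays were Nsun4, Xrcc5, Spop, Acadl and Gm20751, with Pearson correlations of 0.998, 0.998, 0.997, 0.996 and 0.996. Acadl encodes a fatty acid dehydrogenase. The log2 fold changes of these 5 genes were 0.66, 0.29, 0.20, 0.52 and 0.43, in that order. Genes chosen by likeness to a probe with higher signal tend to be higher too, so these values are no support for a link to Lepr. For Prkaa2 A_55_P2506730 the most alike genes were COX1, Tnfsf13os, LOC102640562, Stradb and Tmx2, with correlations of 0.998 to 1.00. Among the 18906 probes with a gene symbol that were detected on all arrays, 306 exceeded 0.95 with the Lepr probe and 813 with the Prkaa2 probe. The arrays share their scaling and the low readings of NEXN-WT replicate 1.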

How the data were processed

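Total RNA of 6 hearts, 1 per array, was labelled with Cy3. The authors deposited Agilent Feature Extraction 10.7.1.1 (credited to the submitters' processing notes) intensity values per spot, background-subtracted but not yet normalized. A deposited table adds the same intensities averaged per probe, normalized log2 values whose 6 columns have identical distributions (method not given in the sources used here) and detection flags; columns of other samples not used numbered 0. Probe coordinates refer to mm9, and exon, intron or UTR positions were not assigned, since an annotation of mm9 was not used here.

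Control and outlier spots were left out, log2 intensities were centred on each array's 75th percentile over non-control spots, and spots of a probe were averaged. Groups and replicates follow the sample titles. Probes detected (well above background) on each of the 3 arrays of a group, 22998 in all, were compared with limma 3.58.1 (lmFit, eBayes, two-sided, Benjamini-Hochberg over all of them) in R 4.3.3, with the data.table package (1.17.8). Python 3.11.15, numpy 2.4.6, pandas 2.3.3, scipy 1.17.1 and matplotlib 3.10.9 served for the rest. Intensities carry no counts, and the precision is limited by how many arrays there are and how far signals exceed background. The fit was tested on simulated data.

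The members and lists were chosen with earlier results of these data known. Named genes were every member with all its probes, Clk4, Nexn and Esr1, in each pathway list up to 4 genes of smallest p per direction past the study's thresholds (where none passed, the 2 of smallest p), and the 5 genes most correlated with the Lepr and the Prkaa2 probe of highest mean. Leprot served for the Lepr pair. Marker lists cover cardiomyocytes, endothelium, endocardium, fibroblasts, pericytes and smooth muscle, macrophages, T cells, B cells, adipocytes, skeletal muscle, the clock and fasting. Alternatives were quantile normalization, normexp (offset 50), the percentile over detected probes, the deposited log2 values, no filter, a filter on all 6 arrays, outlier spots kept, the methods' t-test, an intensity trend, array weights, the replicate number or slide row as a block, slide row 1 only, and each array left out. The methods' t-test on the deposited values was added after seeing the data.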

Additional observations from a re-analysis of the deposited data

How the results depend on the processing

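Of 318 fits of the 16 tested member probes under alternatives, 292 kept the sign and the side of the study's thresholds, 5 fell below those thresholds, 2 came past them and 19 changed sign; the cause was not tested. Lepr A_55_P2506350 had 0.97 with array weights and 0.68 under normexp, and 0.98 to 1.46 with each array left out, under 2-fold without NEXN-WT replicate 1 or NEXN-S437E replicate 1. Lepr A_55_P2177911 had 0.51 under normexp and 1.72 to 2.30 with each array left out. All Lepr alternatives stayed positive. Within slide row 1 (3 arrays labelled NEXN-WT, 1 labelled NEXN-S437E, whose spread is taken from the controls) the Lepr values were 0.28, 2.19 and 1.70, and as a row block the same, with no call lost by the study's thresholds, but A_55_P2177910 lost its unadjusted p of 0.05 in both; Camkk2 A_55_P2737194 came past them there (−1.15).

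Sign changes were as follows. Camkk2 A_55_P2737194 had 0.19 under normexp. Prkaa1 A_51_P158922 had 0.078 with array weights and −0.095 to 0.088 with each array left out. Prkaa2 A_55_P2745129 had −0.27 with array weights, −0.016 with the percentile over detected probes and −0.25 to 0.29 with each array left out, and Prkab1 A_55_P2182700 had −0.050 to 0.62. Prkag2 A_55_P2013296 had −0.072 on the deposited values, with limma and with the methods' t-test, −0.070 under normexp, −0.064 with the percentile over detected probes, −0.068 under quantile normalization and −0.011 to 0.099 with each array left out. Prkag3 A_55_P2496699 had 0.038 under normexp and −0.25 to 0.079 with each array left out.

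Member probes called at the study's thresholds numbered 2, but 3 in slide row 1 and with the row block, 1 with array weights, 0 under normexp, 1 with the filter on all 6 arrays (which leaves out Lepr A_55_P2177911), and 1 to 2 with each array left out. At an adjusted p they numbered 0, but 1 with array weights and 1 with the replicate block, and 0 to 1 with each array left out; at an unadjusted p they numbered 4, but 5 with the percentile over detected probes, 2 with the filter on all 6 arrays, 3 with an intensity trend, no filter, the replicate block, slide row 1, the row block and either methods' t-test, and 2 to 4 with each array left out. Same-numbered arrays had correlations of deviations of −0.15, −0.03 and −0.18. These gave no sign that the numbers pair the arrays, although so few arrays cannot exclude a pairing. The replicate block (Lepr A_55_P2177911 at an adjusted p of 0.0493 from limma, 591 probes called in all) is therefore given only here.

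All probes called numbered 579, but 2269 with no filter on dim probes, 180 under normexp, 345 with the filter on all 6 arrays, 763 in slide row 1, 799 with the row block, 436 with array weights, 412 and 430 with the methods' t-test (the latter on the deposited values), 580 to 607 under the remaining settings, and 361 to 900 with each array left out. At an adjusted p they numbered 37 (26 to 37 under settings not named next), but 668 with array weights, 80 with an intensity trend, 7 with no filter, 0 in slide row 1, 24 with the row block, 0 with the methods' t-test on either source of values, 20 with the filter on all 6 arrays, and 12 to 128 with each array left out. Of the called probes 29.2% were higher, 18.6% with the percentile over detected probes, 13.9% under normexp and 72.5% with no filter.

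The within-array differences kept their sign in all 9 alternatives each, but Prkaa2 minus Prkaa1 fell from 0.43 to 0.17 over all probes of a gene detected on every array. Counts of pathway genes at an unadjusted p ranged from 11 to 25 for the KEGG pathway (25 over all probes of a gene) from 0 to 7 for adenylate and phosphocreatine enzymes and from 0 to 6 for substrates, and moved by at most 1 for each other list.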

Other observations

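The marker lists not described with the members gave the following values, 1 probe per gene. Macrophage markers (7 tested) had a median log2 fold change of 0.04, endocardial markers (3 tested) of −0.02, and fasting-responsive genes (5 tested) of 0.21, and none of these had an unadjusted p under 0.05 in limma. Pericyte and smooth muscle markers (8 tested, median 0.03) and skeletal muscle markers (4 tested, median 0.26) each had 1 gene higher and 1 lower at that threshold, and the only tested B cell marker differed by −0.61. Of 9 tested clock genes 1 was higher and 2 were lower, which were chosen for naming after their values were seen. Ciart, a repressor of the clock, differed by 0.80 (0.51 without NEXN-WT replicate 1), Arntl, the positive arm of the clock, by −0.99 and Clock, its partner, by −0.64, with adjusted p-values of 0.24, 0.085 and 0.22 from limma. The labels do not give the hour at which the hearts were taken.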
